A study of Mus musculus with 9 samples.

Results

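The effect of closing 1 eye on cortical microRNAs (miRNAs) was examined in C57BL6 mice at postnatal day 28, in the primary visual cortex, by setting 3 monocularly deprived arrays against 3 control arrays, 6 of the 9 arrays of the study. Control mice were reared under a normal light and dark cycle until postnatal day 28. Monocularly deprived mice were reared the same way until postnatal day 24, when the lid of 1 eye was sutured, and their visual cortex on the side opposite that eye was sampled at postnatal day 28. The 3 other arrays, from mice reared in the dark, enter here through the detection filter, the scaling, the floor and the shared estimate of spread. They also enter where a value is named as dark-reared. Each sample was 100 ng of total RNA labelled with Cy3 on its own Agilent mouse miRNA array. Whether a replicate was 1 animal or a pool is not given in the labels, and the p-values therefore reflect the spread between these arrays alone, part of which may be technical. Of the 611 mouse miRNA names on the array, 318 were tested, having been detected on each array of 1 or more of the study's groups. Among these, 242 had a probe well above background on all 6 arrays (bright) and 76 did not (dimmer). The 2 sets are kept apart below because slide and group coincided: the control arrays were on slide 1 with the dark-reared arrays and the deprived arrays were on slide 2 by themselves, so that slide and group cannot be told apart in any value given here.

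A miRNA is a short RNA cut from a hairpin precursor. It guides silencing proteins to messenger RNAs, chiefly through its seed, the bases 2 to 8 from its 5′ end, so miRNAs that share a seed share many predicted targets. Closing an eye during the juvenile critical period weakens the cortical response to that eye, and several miRNAs of neurons are made in response to activity. Among them miR-132, which is made with miR-212 from a single transcript, has been linked to dendritic spines and to ocular dominance plasticity in mouse visual cortex.

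The mature sequences of the miRNAs on which the results turn are given from RefSeq (GRCm38.p6), 5′ to 3′, with the seed in capitals. RefSeq entries were matched for 260 of the 318 tested names. The first set holds falls that were called under every scaling tried (miR-212, miR-135a, miR-690 and miR-125a-3p) with the seed partner miR-132 and the opposite arm miR-125a-5p.
miR-212: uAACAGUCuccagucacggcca
miR-132: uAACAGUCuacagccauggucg
miR-135a: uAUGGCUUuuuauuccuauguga
miR-690: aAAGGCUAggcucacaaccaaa
miR-125a-3p: aCAGGUGAgguucuugggagcc
miR-125a-5p: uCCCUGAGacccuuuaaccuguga
miR-212 lies at chr11:75173443-75173464 and miR-132 at chr11:75173723-75173744, both on the plus strand and outside an annotated host gene. miR-690 lies at chr16:28599940-28599961 within Fgf12, and miR-125a-3p at chr17:17830855-17830876 within Spaca6.

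The second set holds rises, grouped by seed. The first 4 share the seed AAAGUGC, the next 3 share AUUGCAC, and the last 2 pairs are miR-7a with miR-7b and miR-99a with miR-100. miR-92b is shown because it went the other way despite its seed.
miR-20a: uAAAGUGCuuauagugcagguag
miR-20b: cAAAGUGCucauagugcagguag
miR-93: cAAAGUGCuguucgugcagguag
miR-106b: uAAAGUGCugacagugcagau
miR-25: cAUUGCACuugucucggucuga
miR-92a: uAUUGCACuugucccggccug
miR-92b: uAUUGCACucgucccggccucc
miR-7a: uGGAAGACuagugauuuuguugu
miR-7b: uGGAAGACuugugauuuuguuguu
miR-99a: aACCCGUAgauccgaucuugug
miR-100: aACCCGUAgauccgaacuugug

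The third set shows 4 falls whose sequences are runs of alternating U and G or of A and C, since these behaved alike on the arrays.
miR-574-5p: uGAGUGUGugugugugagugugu
miR-1187: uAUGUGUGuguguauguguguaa
miR-466i: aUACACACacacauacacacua
miR-467f: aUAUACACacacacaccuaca

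A level is the log2 of the signal over the array's 75th percentile, and changes are monocularly deprived minus control with n = 3 arrays a group. A change was called at an adjusted p under 0.05 in a limma fit to all 9 arrays, adjusted by Benjamini-Hochberg over the 318 names. Per array, 310 to 333 mouse names were detected in control and 297 to 317 after monocular deprivation. The levels of replicate arrays correlated at r = 0.976 to 0.997 in control and 0.993 to 0.999 after deprivation across names, which are not independent. The tissue label was set against cell type lists. All 20 neuronal names were tested, and miR-124, the classical miRNA of neurons, had a level of 4.52 ± 0.05 (SD) in control and 4.52 ± 0.19 after deprivation. The retinal miR-96, miR-182 and miR-183 and the hepatic miR-122 were not well above background on any of the 6 arrays.

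Among the bright miRNAs, 70 of 242 were called (28.9%), 41 of them higher (16.9%) and 29 lower (12%), so that 33.0% of all 318 names were called. The bright rises were small and numerous, and the falls fewer and larger: 1 called rise (0.413%) and 10 called falls (4.13%) were over 2-fold. The median change was 0.12 over the bright names and -0.33 over the dimmer ones. Of the 76 dimmer names 35 were called (46.1%), 9 higher (11.8%) and 26 lower (34.2%), and 21 of those falls (27.6%) but 0 rises (0.0%) were over 2-fold. The detection filter bears on these shares, since a name could enter through the group in which it was high. Of the dimmer names, 19 were detected on all 3 control arrays but not on all 3 deprived arrays, and they hold 17 of the 26 falls and 16 of the 21 over 2-fold. A further 14 entered through the deprived arrays and not the control arrays, with 5 rises and 0 falls. Another 8 passed through the dark-reared arrays alone, with 0 rises and 0 falls. Among the 35 dimmer names detected on all arrays of both groups, 4 were higher and 9 lower. The arrays of both groups did not overlap in 121 bright names (50%) and in 47 dimmer names (61.8%), or in 52.8% of all names. On the shared slide, dark-reared minus control had a median of 0.05 over the bright names with 2 called.

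The split between rises and falls followed the scaling. Over all 318 names, 50 were called higher and 55 lower, against 201 and 33 with the 75th percentile over all miRNA probes, 62 and 37 with quantile normalization, 0 and 36 without scaling, and 3 and 72 with arrays centred on the median of the bright names. The median of all names moved with it, from 0.08 to 0.62, 0.12, -0.15 and -0.11. None of the 41 bright rises was called under all 5 scalings, although 39 of them kept their sign under each. Of the 29 bright falls 10 were called under all 5. These are miR-212, miR-135a, miR-690, miR-125a-3p, miR-1897-5p, miR-574-5p, miR-1187, miR-466f-3p, miR-466i and miR-467f. With background re-estimated by normexp, limma called 2 of the 318 names, miR-690 and miR-212, both lower, and 18 had an unadjusted p under 0.05. The median of all names was then -0.42. Here normexp also added 50 intensity units to every spot, which shrinks log2 changes of dim names. Single arrays also set the count: the 70 bright calls were 40 without control replicate 1, 36 without control replicate 2 and 39 without deprived replicate 1, and 49 to 69 without any other of the 6 arrays.

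**Figure D1:**
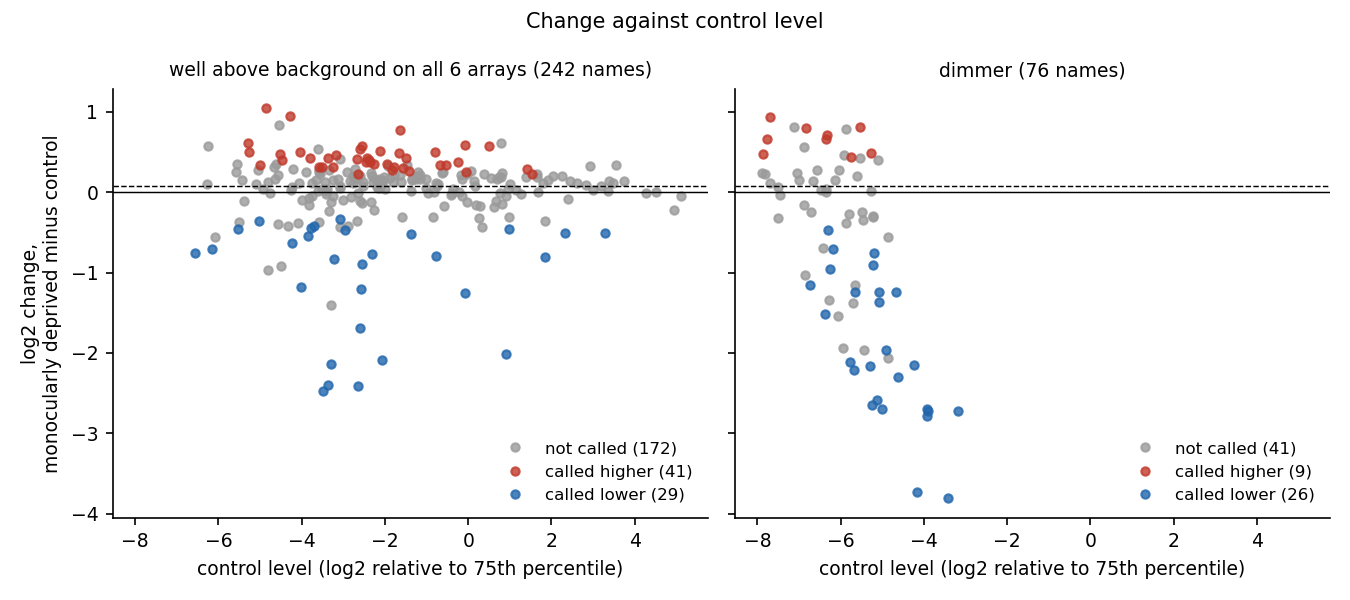
Each point is 1 tested miRNA, with its mean level in control on the x axis and its log2 change (monocularly deprived minus control) on the y axis. The left panel holds the 242 bright names (41 called higher, 29 lower) and the right panel the 76 dimmer names (9 higher, 26 lower), and the dashed line marks the median change of 0.08.

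The locus of miR-212 and miR-132 gave a clear fall of one partner and a weaker one of the other. miR-212 read -0.11, 0.02 and -0.17 on the 3 control arrays and -1.33, -1.26 and -1.45 on the 3 deprived arrays. All deprived arrays lay more than 1 log2 unit below every control array. The fall was 2.39-fold (log2 change -1.26, SE 0.11, limma adjusted p = 4.39e-05) and was called in 29 of 29 alternatives. It was seen on both of its probes, at -1.44 (SE 0.11) on the probe of 13 bases and -1.17 (SE 0.10) on that of 14. miR-132 read 2.33, 2.41 and 2.25 in control and 1.75, 2.21 and 1.49 after deprivation. The groups did not overlap, but deprived replicate 2 lay just under the lowest control array, far nearer to control than the other deprived arrays. The change of -0.51 (SE 0.17, limma adjusted p = 0.0497) was called in 10 of 29 alternatives and was 0.04 with the 75th percentile over all miRNA probes, where miR-212 changed by -0.70. Against the same control arrays, the dark-reared arrays of slide 1 had changes of -1.17 for miR-132 and -0.45 for miR-212.

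The activity-regulated list had 9 tested members, of which 4 fell and 1 rose, against 17.3% lower and 15.7% higher over all names and 34.2% lower among the dimmer ones, which supply 2 of the 4 falls. Its median change was -0.51 against 0.08 over all names. Over its 6 bright members the median was 0.01, and 2 fell and 1 rose. The other calls were the dimmer miR-134 (-0.96, SE 0.20), a regulator of spine size, and miR-188-5p (-0.76, SE 0.18), both lower, and miR-329 (0.34, SE 0.11), which rose. Each of the 3 was called under only 2 of the 5 scalings. Less the median of all names, the list median was -0.59, and -0.58 under the scaling on all miRNA probes, but -0.19 with quantile normalization, -0.15 with normexp and -0.03 with normexp after spots of bright background were left out, an alternative added after the data were seen.

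Other neuronal falls were of different sizes. miR-135a, of a family linked to dendritic spine size in rodent neurons, read -2.76, -2.58 and -2.38 in control and -3.72, -4.13 and -3.50 after deprivation. Its groups were well separated. The fall was 2.31-fold (log2 change -1.21, SE 0.17, limma adjusted p = 0.000899), at -1.51 and -1.04 on its 2 probes. With normexp the change was -0.99 and no longer called (adjusted p = 0.525). The related miR-135b fell by 0.52 on the log2 scale (SE 0.15, adjusted p = 0.0301), with 0.03 under the scaling on all miRNA probes. miR-9, a regulator of neurogenesis that is made from 3 loci, read 3.31, 3.33 and 3.21 in control and 2.81, 2.75 and 2.77 after deprivation. The arrays of each group lay close together, with an SD of 0.06 in control and 0.03 after deprivation. The change was -0.50 (SE 0.08, limma adjusted p = 0.00223), and 0.05 under the scaling on all miRNA probes. miR-124, miR-128 and miR-138, other miRNAs of neurons, had changes of -0.004, -0.05 and -0.04 and were not called. In the neuronal list, all bright, 3 of 20 members rose and 1 fell, with a median of 0.04, while 16.9% of all bright names were higher and 12% lower. The rises were miR-127, miR-218 and miR-323-3p (0.42, SE 0.12). miR-218, which lies within the axon guidance genes Slit2 and Slit3, read 1.43, 1.42 and 1.41 in control and 1.72, 1.64 and 1.75 after deprivation, a change of 0.29 (SE 0.07, adjusted p = 0.0195).

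Large falls in bright names outside the neuronal lists rested on unequal numbers of probes. miR-690 read 1.12, 0.55 and 1.04 in control and -1.06, -1.10 and -1.17 after deprivation. The deprived arrays lay within 0.11 of each other and far below control. The change was -2.01 (SE 0.16, limma adjusted p = 2.58e-05), it was called in 29 of 29 alternatives, and its probes changed by -1.80 and -2.25. miR-125a-3p read -3.32, -3.32 and -3.45 in control and -5.63, -5.97 and -5.66 after deprivation. The change was -2.39 (SE 0.14, limma adjusted p = 5.89e-06), but 1 of its 4 probes was well above background on all 6 arrays, and that probe changed by -1.65. With normexp the change of miR-125a-3p was -1.14 (SE 0.44, adjusted p = 0.591). miR-1897-5p (-1.18, SE 0.12) also had 1 bright probe, of 2.

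The miRNAs built of dinucleotide repeats had wide control values. miR-574-5p read -0.94, -2.63 and -2.62 in control and -4.19, -4.04 and -4.22 after deprivation. Control replicate 1 stood far above the other control arrays, while the deprived arrays were close together. The change was -2.09 (SE 0.51, limma adjusted p = 0.0151), and -1.53 without control replicate 1, still called. miR-1187 (-2.41, SE 0.53, and -1.84 without that array) and miR-467f (-1.69, SE 0.38, and -1.43) showed the same layout. The change of miR-466f-3p (-2.47, SE 0.65) was -1.94 without control replicate 1, with a limma adjusted p of 0.0616. Of the 12 bright names whose probes hold such a repeat, 5 were called lower and 0 higher. Set against the average of the 2 other control arrays, their median was 1.17 on control replicate 1, -0.73, -0.20 and -0.71 on deprived replicates 1 to 3, and 1.45, 1.02 and 0.05 on dark-reared replicates 1 to 3. Over all bright names 12% were called lower and 16.9% higher. In the list of repeat-derived miR-297, miR-466, miR-467, miR-468 and miR-669 names with miR-1187, 5 of 19 tested members fell and 2 rose. The median was -1.38, and over all names 17.3% were lower and 15.7% higher. Among its 8 bright members 4 fell and 0 rose, with a median of -1.54. The other members were dimmer, and over all dimmer names 34.2% were lower and 11.8% higher. Several of them passed the detection filter without the deprived arrays or without the control arrays, so the counts and median over all 19 are a description. Many hairpins of these families are known from an intron of Sfmbt2, but RefSeq positions were matched for 3 of the 19, and 0 of these lay in that gene: miR-1187 is on chromosome 5, miR-466i on chromosome 13 in Cdk13 and miR-467f on chromosome 11 in Fxr2. With normexp the list had 0 calls and a median of -0.77, against -0.42 over all names.

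**Figure D2:**
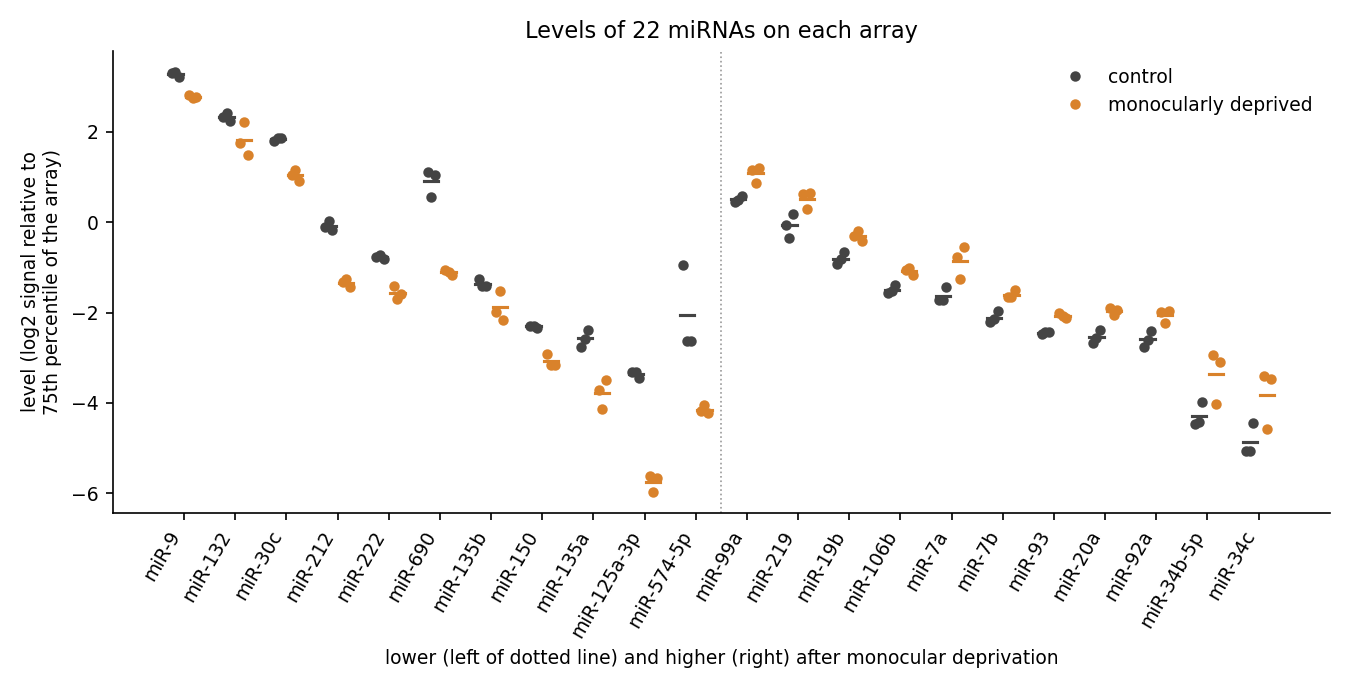
Levels of 22 miRNAs on each of the 6 arrays (points) with group means (lines), as the log2 of the signal over the array's 75th percentile. The 11 names left of the dotted line were called lower and the 11 to its right higher. miR-574-5p shows control replicate 1 far above the other control arrays, and miR-34b-5p and miR-34c show deprived replicate 2 among the control values.

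For some seeds, all tested members were among the rises. Of the miR-17 to miR-92 miRNAs and their paralogs, which are known to promote proliferation, 10 were tested, 9 rose and 1 fell, against 15.7% higher and 17.3% lower over all names. The list median was 0.48, against 0.08 over all names. miR-17, miR-18b and miR-363 of the list were not well above background. All 4 tested members of the seed AAAGUGC rose. miR-20a read -2.68, -2.57 and -2.39 in control and -1.90, -2.06 and -1.95 after deprivation, a rise of 1.49-fold (log2 change 0.57, SE 0.11, limma adjusted p = 0.00539). miR-20b read -3.88, -3.89 and -3.63 in control and -3.32, -3.43 and -3.37 after deprivation, a rise of 1.34-fold (0.43, SE 0.09, adjusted p = 0.00938). In both, every deprived array lay above every control array. miR-106b (0.42, SE 0.08) and miR-93 (0.38, SE 0.07) rose by similar amounts.

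Many of these miRNAs are neighbours in the genome. The hairpins of miR-106b, miR-93 and miR-25 lie together on chromosome 5, with mature arms spanning chr5:138165332-138165807 on the minus strand, in the DNA replication gene Mcm7, and all 3 rose. The cluster at chr14:115043721-115044496 had 6 tested arms, of which miR-18a, miR-19a, miR-19b, miR-20a and miR-92a rose. The remaining arm, the dimmer opposite arm of miR-17, lay below control (-0.31) and was not called. miR-19b read -0.93, -0.81 and -0.67 in control and -0.31, -0.20 and -0.41 after deprivation, without overlap (0.50, SE 0.10, adjusted p = 0.00663). It and miR-92a have a further copy on chromosome X beside miR-20b, and the arrays cannot tell copies of 1 mature sequence apart. Of the 3 members of the seed AUUGCAC, miR-25 (0.46, SE 0.11) and miR-92a (0.53, SE 0.15) rose, while the dimmer miR-92b fell. miR-92b was not well above background on any deprived array and lay at the floor on all 3, so its fall of at least 2.03-fold is a bound. The 9 rises of the list kept their sign under each of the 5 scalings, 7 were called with quantile normalization, 1 with centring on the median and 0 without scaling. With normexp 3 of the 10 members lay above control, and the list median was -0.14 against -0.42 over all names. With normexp after spots of bright background were left out, all 10 lay above control with 0 calls. The list median was then 0.33 against 0.12 over all names.

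Both members of the miR-7 family, which binds the circular RNA Cdr1as in brain, rose. miR-7a read -1.72, -1.73 and -1.44 in control and -0.76, -1.26 and -0.54 after deprivation. The groups did not overlap, and the rise was 1.71-fold (0.77, SE 0.18, limma adjusted p = 0.0122). miR-7b read -2.22, -2.15 and -1.97 in control and -1.65, -1.65 and -1.51 after deprivation (0.51, SE 0.10, adjusted p = 0.00772). Against the same control arrays the dark-reared changes were 0.53 and 0.52, neither called. miR-99a (0.58, SE 0.10, adjusted p = 0.00471) and miR-100 (0.34, SE 0.08, adjusted p = 0.0133), which share a seed and are known to target mTOR signalling, rose without overlap, while miR-99b did not pass. miR-34c (1.04, SE 0.32) and miR-34b-5p (0.94, SE 0.29), targets of p53 made from 1 transcript, had the largest bright rises, each measured on 1 bright probe of 2. miR-34c read -5.06, -5.07 and -4.45 in control and -3.41, -4.57 and -3.47 after deprivation. Deprived replicate 2 fell within the control range, so the groups overlapped. Without deprived replicate 1 the change was 0.83 (adjusted p = 0.132).

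Other families showed small or opposed changes. All 9 members of the let-7 family with miR-98 lay above control, as 58.5% of all names did, with a median of 0.15, but 1 passed, miR-98 (0.26, SE 0.08, adjusted p = 0.0301). Without scaling 3 of the 9 lay above control. In the miR-30 family, all bright, all 5 members lay below control and 2 fell, miR-30c and miR-30b, while 12% of all bright names were called lower. miR-30c read 1.81, 1.86 and 1.86 in control and 1.05, 1.15 and 0.92 after deprivation, without overlap (log2 change -0.80, SE 0.10, limma adjusted p = 0.000361). miR-30b changed by -0.46 (SE 0.09), and by 0.09 under the scaling on all miRNA probes, which moved the median of all names to 0.62. Less the median of all names, the family median was -0.40, and -0.39 under that scaling. With normexp this difference was 0.14, with 1 member above control and 0 calls. After spots of bright background were also left out it was -0.41, with 1 fall called. miR-222 read -0.77, -0.73 and -0.81 in control and -1.41, -1.70 and -1.60 after deprivation (-0.80, SE 0.10, limma adjusted p = 0.000361), whereas miR-221, from the same cluster on chromosome X and with the same seed, had a change of -0.004. The Dlk1-Dio3 list, an imprinted cluster of neuronal miRNAs, had 9 rises and 3 falls among 55 tested members, a share of rises near the 15.7% of all names, with a median of 0.16. miR-337-3p (0.40, SE 0.10) rose, and miR-667 (-0.75, SE 0.10), close to background, fell. The miR-29, miR-181 and miR-23, miR-27 and miR-24 lists held 0 calls among 3, 4 and 5 tested members.

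**Figure D3:**
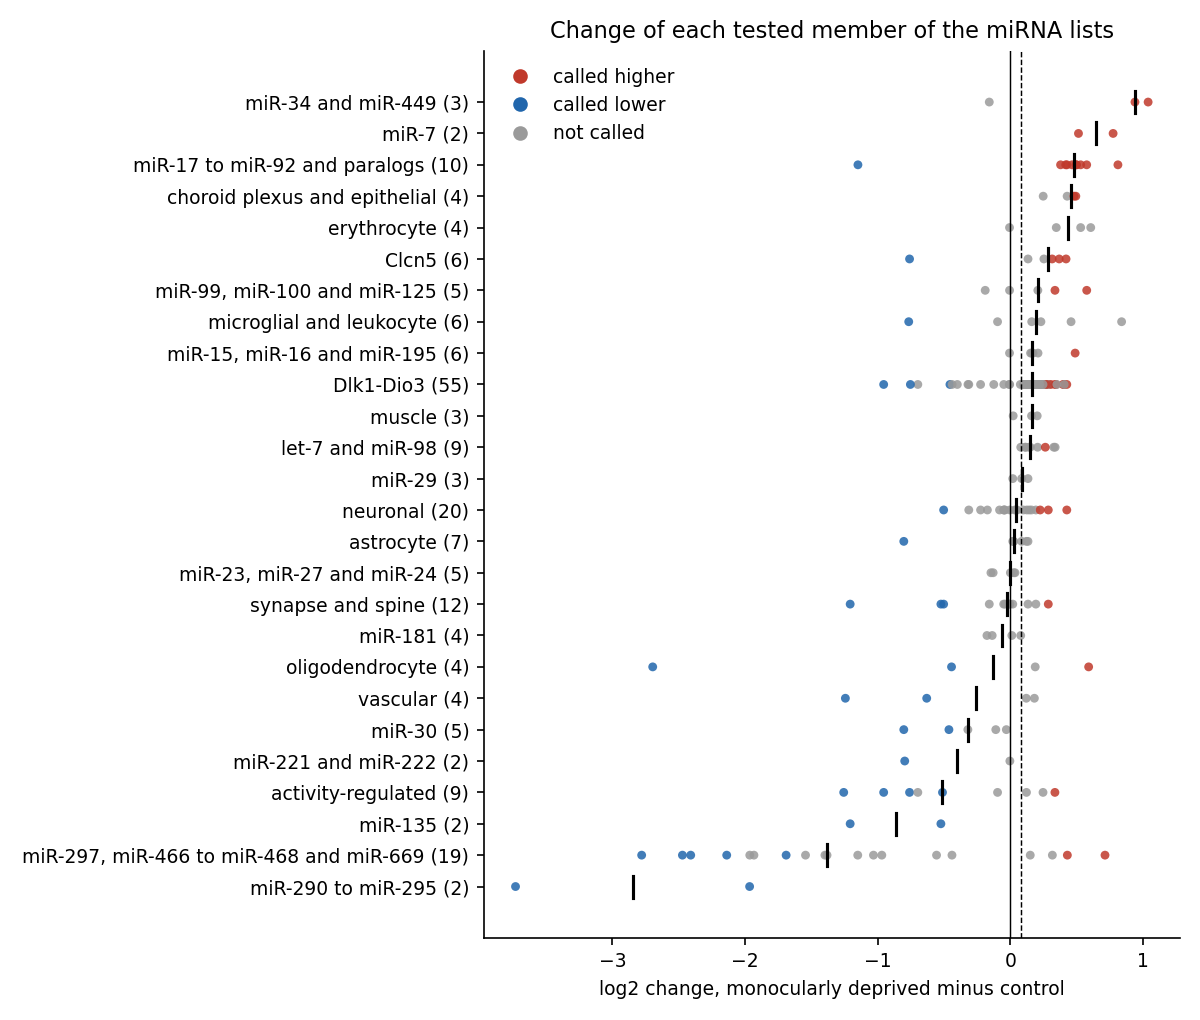
Log2 change (monocularly deprived minus control) of every tested member of each list, with the number tested in brackets. Black bars are list medians and the dashed line is the median of all names (0.08). The miR-17 to miR-92 list sits at 0.48 with 9 called members to the right and miR-92b far to the left.

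Markers of cells other than neurons moved in both directions. Over all names 15.7% were called higher and 17.3% lower, and over the dimmer ones 11.8% and 34.2%. Of the calls counted here, those of miR-338-5p, miR-145 and miR-429 are of dimmer names, and miR-145 was not detected on all deprived arrays. In the oligodendrocyte list of 4, miR-219, which promotes oligodendrocyte differentiation, rose and 2 names fell. miR-219 read -0.05, -0.34 and 0.19 in control and 0.62, 0.30 and 0.64 after deprivation (0.59, SE 0.18, adjusted p = 0.0389), and this call was lost without control replicate 1 or 2 or deprived replicate 1 or 3 (adjusted p = 0.0902 to 0.125). The summed linear level of that list was 2.57 to 3.26 in control and 3.10 to 3.76 after deprivation. Of 7 astrocyte names 1 fell, miR-30c, and the summed level was 43.0 to 45.8 in control and 41.6 to 50.9 after deprivation. Of 6 microglial and leukocyte names 1 fell, miR-150 (-0.77, SE 0.11), a miRNA of lymphocytes, while miR-223, of myeloid cells, had a change of 0.84 (adjusted p = 0.106). The summed level was 1.35 to 1.56 in control and 1.51 to 1.69 after deprivation. The 4 vascular names held 2 falls, and 0 of the 4 erythrocyte names passed, although miR-451 had a change of 0.61 (adjusted p = 0.126) and the summed erythrocyte level was 3.04 to 4.2 in control and 4.27 to 4.80 after deprivation. The choroid plexus and epithelial list, with 2 rises among 4, miR-200b and miR-429, had summed levels of 0.720 to 0.793 and 0.867 to 0.934. The part of other cell types in the results was not tested, and in tissue RNA fewer cells of a type and less RNA per cell cannot be told apart.

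Dividing an array by a constant leaves the ratio of the 2 arms of a hairpin unchanged. Both arms were bright for 33 hairpins, and the ratio changed in 6 (18.2%), 3 in each direction (9.09% each). The 4 miRNAs below show 2 of these hairpins.
miR-9: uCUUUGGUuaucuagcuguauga
miR-9*: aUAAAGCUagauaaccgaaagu
miR-324-5p: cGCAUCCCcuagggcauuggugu
miR-324-3p: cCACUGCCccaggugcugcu
The log2 ratio of miR-125a-5p to miR-125a-3p was 3.72, 4.12 and 4.08 in control and 5.99, 6.66 and 5.88 after deprivation. It rose by 2.20 (SE 0.19, limma adjusted p = 3.48e-05), with miR-125a-3p changing by -2.39 and miR-125a-5p by -0.19. The ratio of miR-9 to miR-9* was 0.02, -0.11 and -0.23 in control and -0.71, -0.92 and -0.62 after deprivation, without overlap (-0.64, SE 0.09, adjusted p = 0.000477), and miR-9* itself changed by 0.14. The ratio of miR-126-5p to miR-126-3p, from the endothelial gene Egfl7, changed by -0.81 (SE 0.08), with miR-126-5p at -0.63 and miR-126-3p at 0.18. Its mean log2 ratio was -4.96 in control, so miR-126-5p was by far the dimmer arm. With normexp after spots of bright background were left out, miR-126-5p changed by -0.08 and was not called. The ratio of miR-136 to miR-136* changed by -0.46 (SE 0.07) and that of miR-411 to miR-411* by 0.35 (SE 0.08), both from Dlk1-Dio3. For miR-324-5p over miR-324-3p the change was 0.54 (SE 0.07), but 0.08 (adjusted p = 0.518) from the brightest probe of each arm, an alternative added after the data were seen. The other 5 kept their calls under that alternative. With normexp, limma called 0 of the 33 ratios and 2 had an unadjusted p under 0.05.

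**Figure D4:**
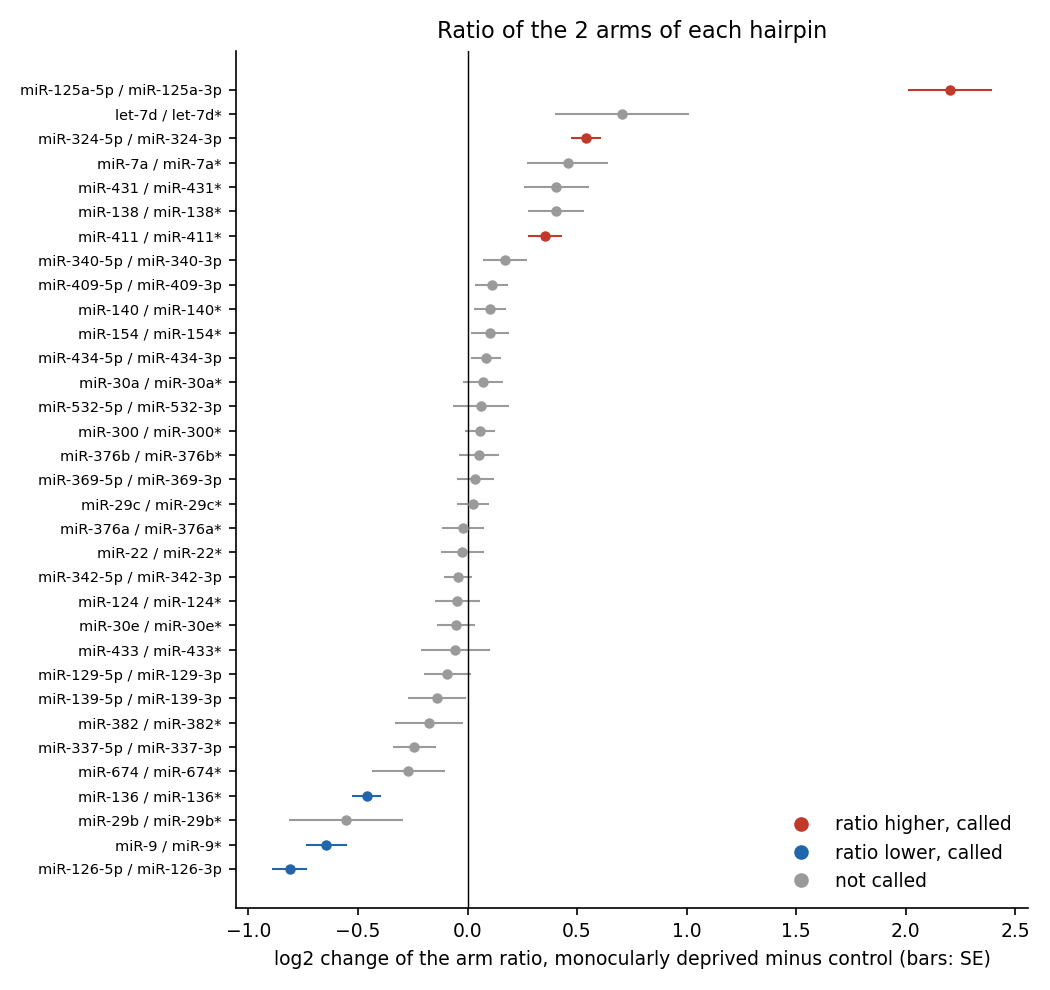
Log2 change of the ratio between the 2 arms of 33 hairpins (points, with SE as bars), monocularly deprived minus control. The ratio of miR-125a-5p to miR-125a-3p stands apart at 2.20, and most of the others lie between -0.5 and 0.5.

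The 2 probes of a name differed in a regular way. Most names have probes of different lengths against the same miRNA, and 189 bright names had exactly 2 such probes well above background. The shorter probe had the lower change in 170 of them, with a median difference of -0.12 and 13 names under -0.5. For dark-reared minus control, on 1 slide, the shorter probe was lower in 148 of 189, with a median of -0.04 and 0 names under -0.5. The gap was wide for some falls named above. miR-30c changed by -1.69 on its probe of 17 bases and -0.61 on that of 18, and miR-30b by -1.22 and -0.33. miR-324-3p changed by -1.22 on 14 bases and 0.16 on 15. For miR-9 the values were -0.78 and -0.38. Rises showed it too: miR-93 changed by -0.002 and 0.43, and miR-25 by 0.12 and 0.53. Taken from the brightest probe alone, miR-30c changed by -0.61 (adjusted p = 0.00277), miR-9 by -0.38 and miR-212 by -1.17, all still called. Across the bright names called higher, every probe had the sign of the name in 33 of the 34 with at least 2 bright probes, and in 16 of 17 of those called lower. Among bright names not called it was 105 of 144. A name is the average of its probes, so such agreement is largely built in where the change is large. Of 443 bright probes fitted singly, 134 were called (30.2%), 78 higher (17.6%) and 56 lower (12.6%). The part of probe length in the changes was not tested.

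**Figure D5:**
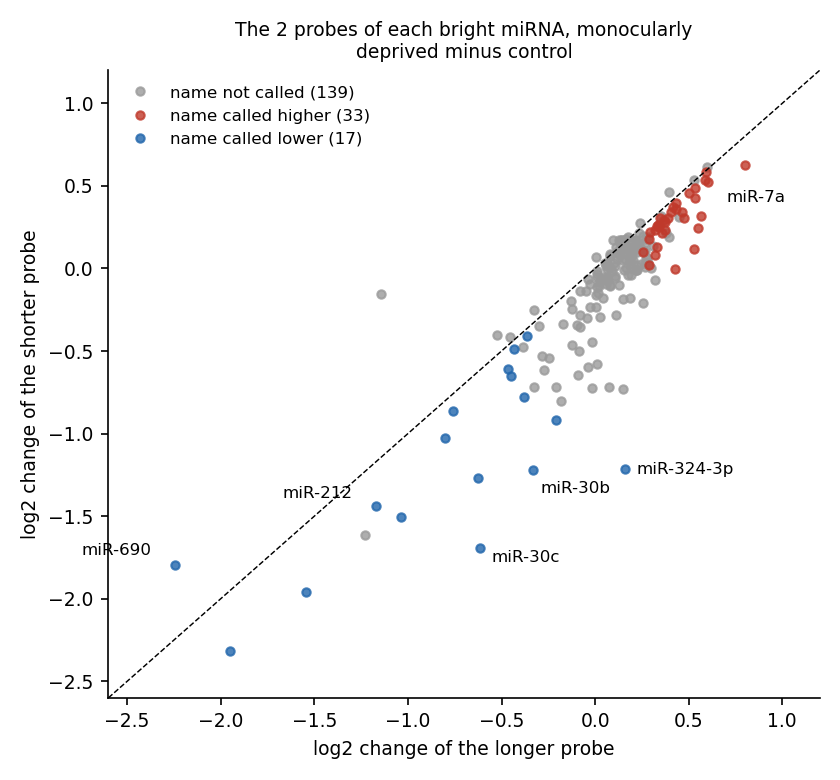
Log2 change (monocularly deprived minus control) of the shorter against the longer probe for the 189 bright names with 2 probes well above background, coloured by the call of the name. Points under the dashed line of equality have a lower change on the shorter probe, as 170 of the 189 do, with miR-324-3p and miR-30c farthest below it.

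The dimmer names held wide falls, some of them known only as bounds. miR-483, miR-295*, miR-290-5p, miR-92b and miR-145 were not detected on all deprived arrays, and miR-505 and miR-467a not on all control arrays, so each passed the filter without the group in which it was lower and its difference is given as a description. miR-483, within Igf2, read -3.50, -3.35 and -3.39 in control and -6.91, -7.71 and -7.03 after deprivation. It was well above background on every control array and no deprived array, and was at least 13.99-fold lower, a bound that takes the lowest signal well above background on each deprived array or, where higher, the signal of the miRNA itself. miR-295*, of a cluster known from embryonic stem cells, read -4.30, -4.01 and -4.16 in control and lay at the floor of -7.89 on all 3 deprived arrays, at least 12.16-fold lower. It and miR-290-5p (at least 3.91-fold lower) were the only tested members of that cluster of 14 names, and the other 12 were not well above background. miR-338-5p (-2.70, SE 0.16) and miR-145 (-1.24, SE 0.24), on 2 and 1 deprived arrays above background, fell, whereas miR-338-3p (0.19), from the hairpin of the first, did not pass. Among rises, miR-18a read -5.65, -5.62 and -5.32 in control and -4.70, -4.75 and -4.71 after deprivation, without overlap (0.81, SE 0.14, adjusted p = 0.00341). miR-505 was at least 1.74-fold and miR-467a at least 1.64-fold higher, since neither was well above background in control. Of the 26 dimmer falls 16 were called under all 5 scalings. Most of these 16 were not detected on all 3 deprived arrays and had passed the filter through control, where they were high. With normexp limma called 0 of the 76 dimmer names, 2 of which had an unadjusted p under 0.05. The 50 intensity units that normexp added shrink changes of dim names, so this count cannot show how background alone bears on them.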

How the data were processed

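Spot intensity values were deposited by the authors as scanner output of 9 arrays, 13715 spots each, of which 13000 are miRNA spots. The background was subtracted and spatially detrended in Agilent Feature Extraction 10.1.1.1, per the file headers, and the authors' processed intensity is not scaled between arrays. The deposited series matrix equalled it for 100% of spots within 1e-05. Here, outlier spots were dropped, spots were averaged per probe and probes per name, and values were divided by the 75th percentile of the array over 433 probes that were bright on the 9 arrays (492 to 1022 intensity units in control, 601 to 641 after deprivation). They were raised to a floor of log2 -7.89 where lower, and log2 was taken. limma 3.58.1 in R 4.3.3 was fitted with 3 group means (6 residual and 2.21 prior degrees of freedom) and Benjamini-Hochberg adjustment. Arm ratios and probes were fitted alike. The fit was tested on simulated data. The number of arrays limits the precision. A probe counted as well above background where the majority of its spots were flagged so, and a name where at least 1 probe was. Named miRNAs are the 12 largest bright and 6 largest dimmer calls per direction, a fixed set (miR-132, miR-212, miR-134, miR-124, miR-9, miR-29a, let-7c, miR-128, miR-138, miR-219 and miR-338-3p), the 4 smallest p-values of each list, the 6 hairpins of smallest arm-ratio p and their cluster partners. Not all of them are described. The members, lists and alternatives were chosen with earlier results of these data known. Alternatives covered scaling, background, floor, probe summary, filter, fit and left-out arrays.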

Additional observations from a re-analysis of the deposited data

How the results depend on the processing

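Under 29 alternatives, the named values kept their side of the threshold in 1917 instances, lost the call in 350 and gained it in 25. In 35 further instances the sign turned and the value was called in the main fit or in the alternative. Only these 35 are given below as turned. Sign changes of values called in neither fit are counted among the 1917. A total of 105 calls became 234 with the 75th percentile over all miRNA probes, 36 without scaling, 2 with normexp, 6 with normexp after spots of bright background were left out (added after seeing the data) and 66 to 102 without single replicates. The 70 bright calls became 185, 11, 42 (centred on the median of the bright names), 2, 6 and 36 to 69, the 35 dimmer calls 0 and 0 with either normexp, the 134 probe calls 357 with all probes, 24 without scaling and 76 to 134 without single replicates, and the 6 arm ratios 0 with normexp, 2 with the added normexp and 6 to 9 without single replicates. The labels do not say whether replicate numbers pair the arrays. Deviations from the group means correlated at -0.36, -0.26 and 0.21 for the same number and at up to 0.33 for different numbers. Deviations from a mean of 3 arrays constrain each other, so these values cannot settle pairing. The replicate block on control and deprived arrays alone gave 62 calls, 28 of them bright, while the block on 9 arrays gave 10 arm ratios. A slide block could not be fitted and was not run. With normexp, values turned to -0.28 (miR-34c), -0.21 (miR-34b-5p), -0.51 (miR-28), -0.0433 (miR-92a), -0.35 (miR-19a), -0.53 (miR-200b), -0.68 (miR-186*), -0.49 (miR-18a), -0.63 (miR-505), -0.58 (miR-467a), -0.60 (miR-378*), -0.69 (miR-330), -0.0879 (miR-93), -0.19 (miR-25), -0.35 (miR-20b), -0.054 (miR-411), -0.0676 (miR-323-3p), -0.11 (miR-337-3p) and -0.54 (miR-429). With scaling on all miRNA probes they turned to 0.04 (miR-132), 0.55 (miR-124), 0.0487 (miR-9), 0.51 (miR-138), 0.0885 (miR-30b), 0.55 (miR-221), 0.0279 (miR-135b), 0.21 (miR-324-3p), 0.54 (miR-411*) and 0.44 (miR-30e), while the median of all names rose to 0.62. With the added normexp, miR-134 was 0.0756, miR-92b 0.0551, miR-188-5p 0.0135 and miR-667 0.098. The median of all names was -0.42 with normexp and 0.12 with the added normexp. The 19 names that turned with normexp all lay above control with the added normexp, though none of them was called. miR-324-3p was 0.16 from its brightest probe, and miR-667 was 0.0319 with quantile normalization. The cause of these changes was not tested. Signal near background limits the dimmer values.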

Other observations

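The bright names called lower had probes of higher GC content and shorter length than the other bright names, with medians of 56.3% and 16 bases against 47.1% and 19 bases for those called higher and 47.4% and 18 bases over all 242. Dimmer names called lower had a median of 58.6% and 15 bases. These properties were not tested as a source of the changes.

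Control spots differed between the slides. The bright corner spots read 11075 to 15179 intensity units on the control arrays and 475 to 723 on the monocularly deprived arrays (log2 change -4.48). Of the other control probes with like spots on every array, dmr_3 changed by -0.28, dmr_6 by -0.32, dmr_31a by 0.07 and dmr_285 by -0.01, and hur_1 changed by 0.05, hur_2 by 0.05, hur_4 by -0.12 and hur_6 by -0.21, the last 4 with an SD of 0.34 to 0.58 on the control arrays. Of 39 viral names on the array, 6 were detected on all 3 control arrays, 4 on all 3 deprived arrays, and 0 on all deprived arrays with none of the control arrays.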
